A study of Mus musculus with 72 samples.

Results

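Steady-state RNA levels in the nuclear fraction were compared with those in the cytosolic fraction of mouse embryonic stem cells (mESCs). A gene was included when its mean level was 5 or more CPM (read counts scaled to a common library size) in either fraction, which held for 10988 of the 51826 genes in the count files. Of these genes, 9634 reached that level in both fractions, 1121 only in the nucleus and 233 only in the cytosol. All 10988 were among the 15078 genes that had enough counts to be tested.

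The data came from 72 poly(A)-selected RNA libraries of the line E14TG2a, grown in 2i + LIF medium, which holds cells in a naive pluripotent state. Cells were labeled with 4sU (4-thiouridine), a uridine analog that marks RNA made during labeling by T-to-C mutations, and were then split into cytosolic, membrane and nuclear fractions. For the comparison, 16 nuclear libraries were paired with the 16 cytosolic libraries of the same labeled cells, from 6 independently passaged replicates. Labeling took 15, 20 or 30 min in replicates 1 and 2. It took 20, 40 or 60 min in replicates 3 and 4, and in replicates 5 and 6 it was 60 or 120 min, so that only 20 and 60 min are shared between sets. The labels give 500 µM 4sU up to 40 min and 100 µM for 60 and 120 min, whereas the methods of the study give 500 µM for part of the 60 min libraries, and no result below is split by dose. All cells were collected in cycloheximide, an inhibitor of translation elongation. Digitonin, which permeabilizes the plasma membrane, released the cytosolic fraction, NP-40 then released the membrane fraction, and the remaining pellet, which the labels call insoluble and nuclear, was spun through sucrose. Between 15716484 and 52975732 reads per nuclear library (median 20888249) and between 19572053 and 30613392 per cytosolic library (median 22915024) were counted on genes. Of 12 marker genes of embryonic stem cells, all were detected in every fraction, with a summed level of 5454 to 7720 CPM in the nuclear libraries and 7897 to 9123 in the cytosolic libraries. The summed level of 14 markers of other cell types was 75.6 to 125 CPM in the nuclear and 42.9 to 62.9 in the cytosolic libraries.

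A transcript is made, spliced and polyadenylated in the nucleus, and it is exported through nuclear pores once it is packaged with export factors. In the cytoplasm it is either translated by free ribosomes or, when it encodes a secreted or membrane protein, is carried with its ribosome to the surface of the endoplasmic reticulum (ER). Noncoding RNAs that act on chromatin, in speckles or in the nucleolus largely stay in the nucleus. A steady-state ratio of nucleus to cytosol thus holds export, decay and the ER route together.

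Of the 10988 genes, 2420 (22.0%) were higher in the nucleus and 1619 (14.7%) were higher in the cytosol, with an adjusted p under 0.05 (edgeR's quasi-likelihood test, paired by labeling time and replicate, Benjamini-Hochberg adjustment) and a ratio over 2-fold. These are called nuclear-enriched and cytosol-enriched in what follows. Over all 15078 tested genes, 24.2% were nuclear-enriched and 13.9% cytosol-enriched by the same limits. Among the 9634 genes with 5 or more CPM in both fractions, 1582 were nuclear-enriched and 1471 cytosol-enriched. The adjusted p alone was under 0.05 for 9382 genes, so that the 2-fold limit made most of the selection, and many genes lay close to it. Just past the limit on the nuclear side were 191 genes with a log2 ratio of 1 to 1.1, and 188 lay just inside at 0.9 to 1. On the cytosolic side 321 lay past and 385 inside.

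The nuclear side was the longer one. The log2 ratio of nucleus to cytosol ran from −2.73 (6.61-fold higher in the cytosol) to 7.14 (141-fold higher in the nucleus), with 5% of genes below −1.39 and 5% above 2.32. The median was 1.77 over the nuclear-enriched genes, −1.27 over the cytosol-enriched genes and −0.07 over all 10988. Every nuclear library was above every cytosolic library for 1909 of the 2420 nuclear-enriched genes, and 2386 were higher in the nucleus in 16 of 16 pairs. Fractions were also fully apart for 1171 of the 1619 cytosol-enriched genes, of which 1568 were higher in the cytosol in 16 of 16 pairs. Over all tested genes, the libraries did not overlap for 17% with the nucleus higher and for 11.1% with the cytosol higher.

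Ratios are relative to the other RNAs of a library, since the amount of RNA in each fraction is not in the counts: a log2 ratio of 0 is that of a typical gene and not one of equal copy number. In such bulk libraries, more RNA in each nucleus and more nuclei that hold it cannot be told apart. The balance of both sides rests on the scaling. With TMM normalization, 63.5% of all calls were nuclear-enriched. With scaling to library size only, the median of all tested genes moved up by 0.28, 4475 genes were nuclear-enriched and 1033 cytosol-enriched, and the nuclear share of the calls was 81.2%. Levels below are TMM-normalized CPM, not divided by gene length. The ratio of mean levels differed from the fitted ratio by a median of 0.09 on the log2 scale.

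**Figure D1:**
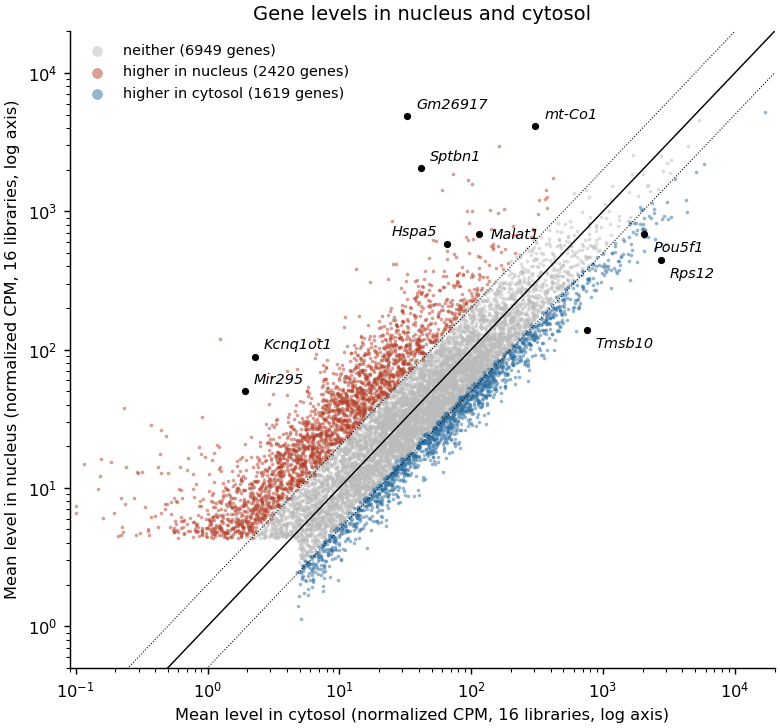
Mean level of each of the 10988 genes in the nuclear fraction (y axis) against the cytosolic fraction (x axis), in normalized CPM on log axes, 16 libraries each, with nuclear-enriched genes in red, cytosol-enriched genes in blue, a solid line at equal levels, dotted lines at 2-fold and cytosolic levels under 0.1 drawn at 0.1. The cloud reaches farther from the solid line on the nuclear side, up to Gm26917 with a log2 ratio of 7.14, than on the cytosolic side, where Rps12 is at −2.73.

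The 10 protein-coding genes with the largest ratio of nucleus to cytosol among those not high in the membrane fraction (a ratio of membrane to cytosol under 1.5) are described first, ranked by the ratio itself. Sptbn1, which encodes the spectrin beta chain of the membrane skeleton (chromosome 11, 30099395-30268175, minus strand, GRCm38, 31 exons), had a nuclear level of 1157 to 3872 normalized CPM (median 1843). Its cytosolic level was 16.1 to 67.5 (median 34.8). All nuclear libraries lay far above all cytosolic ones, and the membrane libraries, at a median of 39.5, were as low as the cytosolic ones, while whole cells were in between at 594. The log2 ratio of Sptbn1 was 5.59 ± 0.29 (SE, 16 pairs, edgeR adjusted p = 1.15e-12), or 48.1-fold. Sptan1, the alpha chain that pairs with it, was at 810 to 2911 (median 1286) in the nucleus and 48.5 to 148 (median 95.9) in the cytosol, again with no overlap, and its log2 ratio was 3.85 ± 0.26.

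IQGAP scaffolds link actin to signaling by small GTPases. Iqgap1 had a nuclear level of 863 to 2435 normalized CPM (median 1273) and a cytosolic level of 28.8 to 85.9 (median 69.6), for a log2 ratio of 4.47 ± 0.23. Iqgap3 was lower in both fractions, at medians of 256 and 16.4, with a log2 ratio of 4.11 ± 0.26. Macf1, a giant protein that crosslinks microtubules and actin, had a nuclear median of 1534, a cytosolic one of 81.8 and a log2 ratio of 4.15 ± 0.27. For each of these genes the lowest nuclear library was above the highest cytosolic one.

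Dbn1, encoding drebrin, which bundles actin, had a nuclear median of 101 and a cytosolic median of 5.32 normalized CPM. Lima1 and Actn4 encode an actin bundler and an actinin, and their nuclear medians were 405 and 2185 against cytosolic medians of 21.6 and 155. Cgn, encoding cingulin of the tight junction, was at 26.8 to 62.1 in the nucleus and 0.321 to 6.74 in the cytosol. The log2 ratios were 4.10 ± 0.30 for Dbn1, 4.00 ± 0.23 for Lima1, 3.97 ± 0.24 for Actn4 and 3.96 ± 0.27 for Cgn. The tenth gene was 2900026A02Rik, with medians of 70.0 and 5.02 and a log2 ratio of 3.77 ± 0.36. All 10 were higher in the nucleus in 16 of 16 pairs, and their edgeR adjusted p-values for the log2 ratio ran from 1.15e-12 for Sptbn1 to 7.95e-09 for 2900026A02Rik.

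These 10 mRNAs were not rich in intron sequence in the nucleus. The share of T positions in introns, among all T positions counted on a gene, was 1.76% to 12.4% (median 4.10%) in the nuclear libraries, against a median of 24.2% over all nuclear-enriched protein-coding genes. In the cytosolic libraries, where their levels were low, the share was 4.87% to 20.7% (median 9.91%). The median there over all nuclear-enriched protein-coding genes was 15.9%. In whole cells, the share of new to total RNA, averaged over 16 libraries, was 4.80% to 13.5% (median 6.73%), against a median of 11.4% over the nuclear-enriched genes. Their proteins had 706 to 7355 residues (median 1645). The ratio of nucleus to membrane levels was 10.1 to 49.1, so that the nuclear pellet was the fraction with the highest level of these RNAs. How the insoluble material of that pellet enters these values was not tested.

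**Figure D2:**
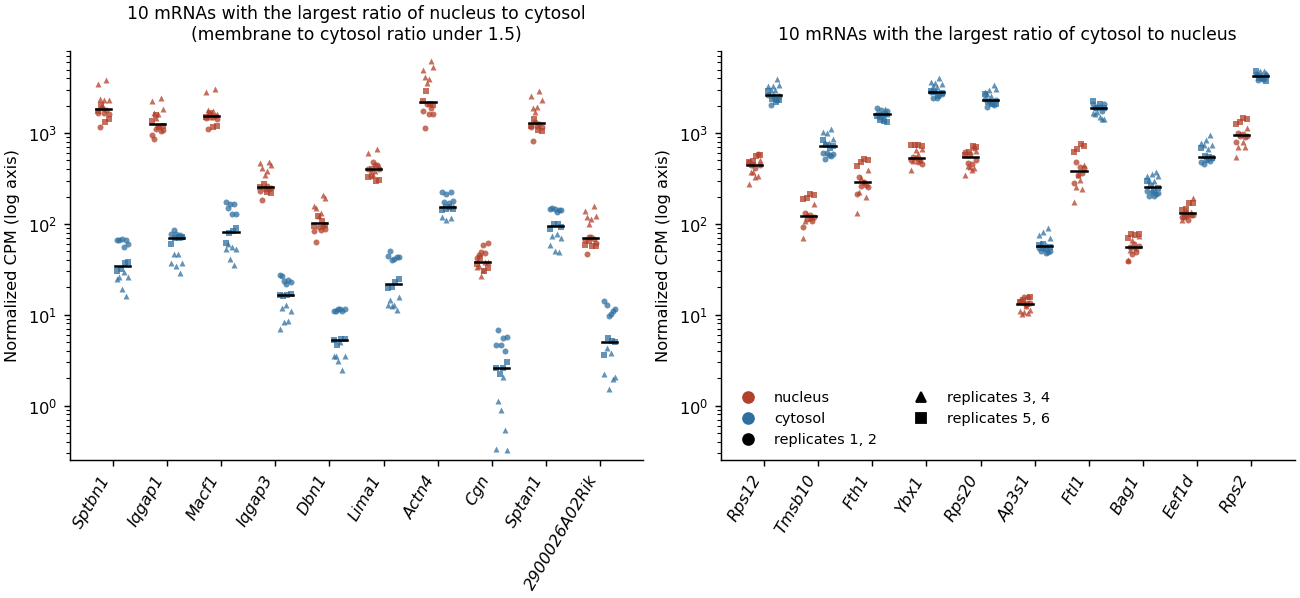
Normalized CPM (log axis) in each of the 16 nuclear (red) and 16 cytosolic (blue) libraries for the 10 protein-coding genes with the largest ratio of nucleus to cytosol and a membrane to cytosol ratio under 1.5 (left), and for the 10 with the largest ratio of cytosol to nucleus (right), with medians as bars and replicates 1 and 2, 3 and 4, and 5 and 6 as circles, triangles and squares. No nuclear library overlaps a cytosolic one for any of the 20 genes, and on the left the triangles are spread the widest.

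Of 59 chromatin regulators, 13 were nuclear-enriched, against 22.0% of the 10988, and 1 was cytosol-enriched, with a median log2 ratio of 0.44. All 13 had a membrane to cytosol ratio under 1.5. Over all genes with such a ratio, 9.25% were nuclear-enriched, and the median log2 ratio was −0.32. Kmt2b, a histone H3 lysine methyltransferase, was at 299 to 641 normalized CPM in the nucleus (median 446) and 11.9 to 94.0 in the cytosol (median 39.6), with a log2 ratio of 3.36 ± 0.29. Its relative Kmt2a followed at 2.76 ± 0.35, and the remodeler Chd4 and the dioxygenase Tet1, which oxidizes methylated cytosine, were at 2.01 ± 0.14 and 1.77 ± 0.07. Hdac2, a histone deacetylase, was the 1 cytosol-enriched gene of the list, at −1.13 ± 0.13. Among 37 cyclins and mitotic regulators, 3 were nuclear-enriched and 6 cytosol-enriched, against 22.0% and 14.7% of the 10988, with a median of −0.34. Mki67, which coats mitotic chromosomes, had a nuclear level of 743 to 1202 (median 984) and a cytosolic level of 68.9 to 123 (median 90.1), with a log2 ratio of 3.35 ± 0.10. The ubiquitin-conjugating enzyme Ube2c and cyclin A2 (Ccna2) were at the other end of that list, with −1.46 ± 0.08 and −1.44 ± 0.09.

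Of 44 kinesin and dynein genes, 5 were nuclear-enriched and 4 cytosol-enriched, against 22.0% and 14.7% of the 10988 genes. All 5 had a membrane to cytosol ratio under 1.5, and 9.25% of all genes with such a ratio were nuclear-enriched. The median of the motor genes was 0.04, but −0.08 within replicates 1 and 2 and −0.03 within replicates 5 and 6. Dync1h1, the motor-bearing heavy chain of cytoplasmic dynein, had 657 to 1441 normalized CPM in the nucleus (median 1031) and 48.4 to 221 in the cytosol (median 166). Its log2 ratio was 2.90 ± 0.25. Dynlrb1, a light chain of the same motor, was at 9.88 to 36.1 in the nucleus and 56.5 to 126 in the cytosol, with a log2 ratio of −2.01 ± 0.16. The 4 cytosol-enriched genes were Dynlrb1, Dynll1, Dynll2 and Dync2li1, which are all dynein light or light intermediate chains (chosen after their values were seen). Among 52 centrosome and cilium genes, both shares were again below those of all genes. Of these 52, 4 were nuclear-enriched, led by Cep350 at 2.25 ± 0.14, and 1, Ift74, was cytosol-enriched at −1.13 ± 0.17.

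Protein length was set beside the ratio for the protein-coding genes with a membrane to cytosol ratio under 1.5, as a description. The median log2 ratio was −1.07 for 1053 genes of up to 200 residues, −0.75 for 2229 genes above that and up to 400, and −0.22 for the next 3070 up to 800. It was 0.23 for 1474 genes of up to 1600 residues, 0.65 for 378 genes of up to 3200 and 1.22 for 45 genes above 3200. The share of nuclear-enriched genes went from 1.71% in the shortest to 73.3% in the longest class, and the share of cytosol-enriched genes from 56.0% to 0%. The order of the 6 classes was the same within each set of replicates, over medians from −0.90 to 0.74 in replicates 1 and 2, −1.54 to 1.97 in replicates 3 and 4 and −0.67 to 0.65 in replicates 5 and 6. Transcript length, exon number and library preparation go along with protein length, and their parts were not tested.

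**Figure D3:**
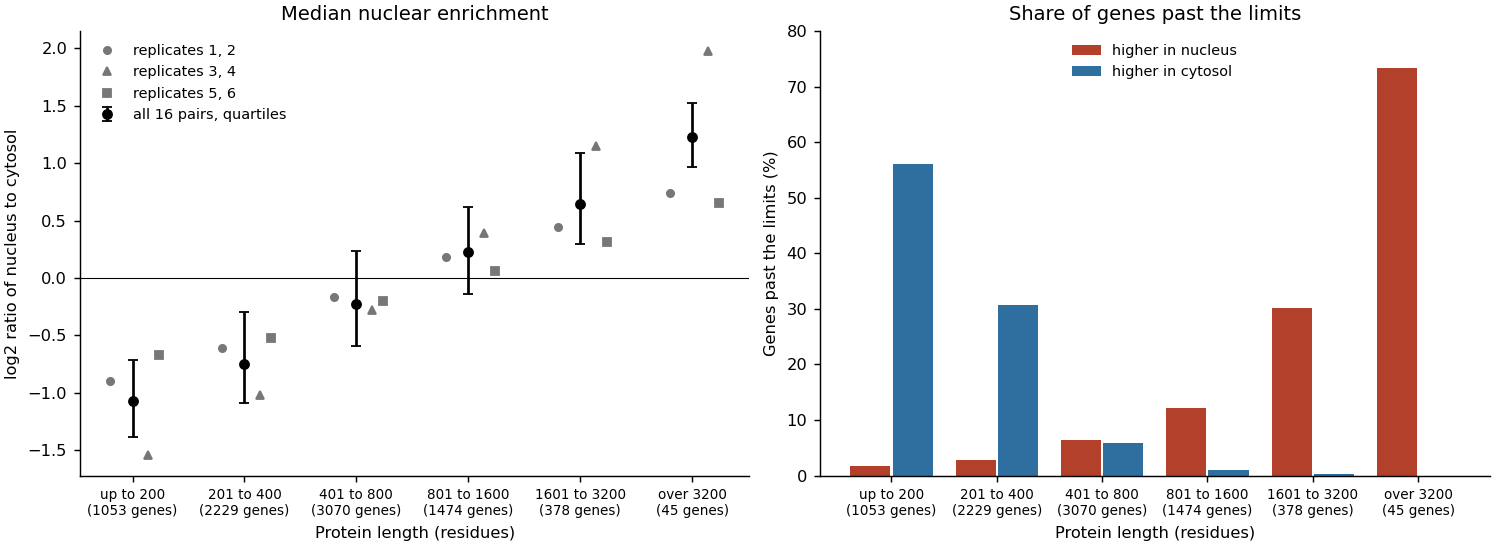
Left, median log2 ratio of nucleus to cytosol by protein length for protein-coding genes with a membrane to cytosol ratio under 1.5 (black points, bars from the lower to the upper quartile of genes), with the medians within each set of replicates in gray, and right, percent of the genes of each class that were nuclear-enriched (red) or cytosol-enriched (blue). The median climbs from −1.07 below 200 residues to 1.22 above 3200, and the triangles of replicates 3 and 4 span the widest range.

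Over all 10378 protein-coding genes, the 2149 nuclear-enriched ones had a median of 603 residues, 12 exons and a longest transcript of 3.96 kb. The 1475 cytosol-enriched ones had 224 residues, 6 exons and 1.86 kb, and the 6754 others 516 residues, 10 exons and 3.35 kb. Gene length, introns included, had medians of 28.7, 14.9 and 26.2 kb in the same order. The share of intron T positions in the nucleus differed little between the classes, with medians of 24.2%, 23.9% and 29.2%. In the cytosol it was 15.9% for nuclear-enriched, 3.73% for cytosol-enriched and 7.99% for the other genes. A stretch of 19 residues with a mean Kyte-Doolittle hydropathy of 1.6 or more, a common sign of a transmembrane segment or signal peptide, was found in 72.5% of nuclear-enriched proteins, 8.99% of cytosol-enriched proteins and 22.3% of the others. Longer proteins have more such windows, and length was not held fixed in these shares.

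Many nuclear-enriched genes were also high in the membrane fraction. The ratio of membrane to cytosol shares its cytosolic libraries with the ratio of nucleus to cytosol, so both rise when a cytosolic level is low, and levels are given side by side. Of 1674 genes with a membrane to cytosol ratio of 3 or more, 1391 were nuclear-enriched and 0 cytosol-enriched. Of 8800 genes with a ratio under 1.5, 814 were nuclear-enriched and 1617 cytosol-enriched. The 1371 nuclear-enriched protein-coding genes with a ratio of 3 or more had a median level of 29.9 normalized CPM in the nucleus, 8.003 in the cytosol and 70.3 in the membrane fraction. Their median protein length was 505 residues, and 92.7% had a hydrophobic stretch. The 607 with a ratio under 1.5 had median levels of 48.7 in the nucleus, 17.1 in the cytosol and 15.1 in the membrane fraction, with 866 residues and a hydrophobic stretch in 30.3%.

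Genes of the secretory pathway held this pattern as groups. Of 25 ER chaperones and translocon subunits, 20 were nuclear-enriched and 0 cytosol-enriched, with a median log2 ratio of 1.897. Hspa5, encoding the ER chaperone BiP, was at 302 to 841 normalized CPM in the nucleus (median 606), 36.9 to 89.3 in the cytosol (median 73.7) and a median of 2266 in the membrane fraction. Nuclear and cytosolic libraries did not overlap, and the log2 ratio of Hspa5 was 3.04 ± 0.08, alike in the 3 sets of replicates (2.96, 3.00 and 3.22). The disulfide isomerase Pdia3 was at 2.96 ± 0.07 and the chaperone Hsp90b1 at 2.72 ± 0.07. The small tail-anchored translocon subunits Sec61b and Sec61g stood at the other end of the list, at −0.90 ± 0.20 and −0.95 ± 0.20, with mean nuclear levels of 62.3 and 49.1 and mean cytosolic levels of 99.5 and 85.1.

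All 23 genes of the extracellular matrix and cell adhesion were nuclear-enriched, with a median log2 ratio of 2.703. The heparan sulfate proteoglycan Hspg2 was at 185 to 456 normalized CPM in the nucleus (median 300.2), 8.12 to 74.3 in the cytosol (median 33.2) and a median of 261 in the membrane fraction, for a log2 ratio of 3.19 ± 0.32. The basement membrane genes Col4a1, Lama5 and Lamc1 were at 3.17 ± 0.20, 2.98 ± 0.30 and 2.91 ± 0.22, and the integrin subunit Itgb1 was at 2.18 ± 0.06. The lowest of the list was Podxl, an anti-adhesive sialomucin, at 1.34 ± 0.12.

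Of 177 solute carriers, which transport ions and metabolites, 128 were nuclear-enriched and 4 cytosol-enriched. The median was 1.59. Slc2a1, the glucose transporter GLUT1, had medians of 188 normalized CPM in the nucleus, 27.7 in the cytosol and 633 in the membrane fraction, and a log2 ratio of 2.69 ± 0.13. The 4 cytosol-enriched carriers were Slc25a15, Slc25a4, Slc25a5 and Slc25a39, with log2 ratios of −1.47, −1.44, −1.27 and −1.23. All 4 belong to the Slc25 family of the inner mitochondrial membrane, whose proteins are imported after synthesis in the cytosol (chosen after their values were seen). Of 122 genes named Tmem, for predicted transmembrane proteins, 69 were nuclear-enriched and 6 cytosol-enriched, from Tmem132a at 3.43 ± 0.22 to Tmem126a at −1.56 ± 0.11.

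The pathway of cholesterol synthesis and uptake was divided. Of 22 genes, 12 were nuclear-enriched and 1 was cytosol-enriched, with a median log2 ratio of 1.63. The sterol sensor Scap and the ER enzyme Cyp51 were at 2.32 ± 0.20 and 2.22 ± 0.07. Idi1, an isomerase of the early isoprenoid steps that has no ER anchor, was the 1 cytosol-enriched gene, at 17.5 to 37.3 in the nucleus and 43.2 to 102 in the cytosol, with −1.24 ± 0.16. The enzymes Mvd, Pmvk, Mvk and Hmgcs1 were at −0.84, −0.56, −0.54 and −0.53 and did not reach 2-fold.

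Among nuclear-enriched protein-coding genes with a membrane to cytosol ratio of 3 or more, the largest ratios outside the mitochondrial genes belonged to Pom121, Diaph1, Srebf1 and Ilvbl. Pom121, a membrane-anchored protein of the nuclear pore, was at 231 to 459 normalized CPM in the nucleus (median 296), 4.33 to 52.8 in the cytosol (median 19.9) and a median of 164 in the membrane fraction. Its log2 ratio was 3.98 ± 0.36. Srebf1, the ER-anchored transcription factor of lipid synthesis, was at 221 to 338 in the nucleus and 5.15 to 67.1 in the cytosol, with 3.53 ± 0.29. Diaph1, a formin that nucleates actin, had medians of 598 and 49.3 and a log2 ratio of 3.55 ± 0.20. Ilvbl, of the ER, was low in all fractions, with medians of 23.2 in the nucleus, 2.44 in the cytosol and 20.0 in the membrane fraction, and was at 3.48 ± 0.22. Unlike Hspa5, Pom121 and Diaph1 were higher in the nucleus than in the membrane fraction, at ratios of 1.95 and 2.63.

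All 7 mitochondrial-encoded mRNAs that reached the level limit were nuclear-enriched. These RNAs are made and translated inside mitochondria. The paper reports that its nuclear fraction was slightly contaminated by mitochondria, and the part of this in the ratios was not tested. The other 6 of 13 had a mean of 0.0781 to 2.77 reads per library. mt-Co1, a subunit of cytochrome c oxidase, was at 2238 to 7380 normalized CPM in the nucleus (median 3795), 94.9 to 534 in the cytosol (median 340) and a median of 50546 in the membrane fraction, with a log2 ratio of 3.77 ± 0.15. mt-Nd6, the one of the 7 encoded on the light strand, was at 15.9 to 38.1 in the nucleus and 0 to 1.499 in the cytosol, with a log2 ratio of 5.83 ± 0.28. Its mean cytosolic level was 0.446, so that it was included through the nucleus alone. The other 5 had log2 ratios from 2.07 for mt-Nd1 to 3.06 for mt-Nd4. The ratio of nucleus to membrane level was 0.0465 for mt-Cytb and 0.0849 for mt-Nd4, the lowest and the highest of the 7, against a median of 0.391 over the nuclear-enriched protein-coding genes with a membrane to cytosol ratio of 3 or more.

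Mitochondrial-encoded RNAs took 1.00% ± 0.394 (SD, n = 16) of the reads in the nuclear, 0.137% ± 0.0825 in the cytosolic, 11.9% ± 3.28 in the membrane and 4.98% ± 1.77 in the whole-cell libraries. Within replicates 1 and 2, 3 and 4, and 5 and 6, the nuclear share was 1.28%, 0.614% and 1.17%, and the cytosolic share 0.218%, 0.0457% and 0.152%. The part that membrane material in the nuclear pellet has in the enrichment of ER-targeted mRNAs was not tested.

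The 10 protein-coding genes with the largest ratio of cytosol to nucleus included 3 genes of ribosomal proteins. Rps12, of the small ribosomal subunit (chromosome 10, 23785183-23787275, minus strand, GRCm38, 6 exons), was at 273 to 595 normalized CPM in the nucleus (median 451) and 2028 to 3891 in the cytosol (median 2610). Its log2 ratio was −2.73 ± 0.14 (edgeR adjusted p = 1.03e-12), or 6.61-fold higher in the cytosol. Rps20 had medians of 540 and 2320, and Rps2 of 956 and 4252, for log2 ratios of −2.32 ± 0.13 and −2.25 ± 0.12. All 16 pairs were higher in the cytosol for these 3 genes, and the fractions did not overlap.

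Of 83 genes of cytosolic ribosomal proteins, 71 were cytosol-enriched and 0 nuclear-enriched, with a median log2 ratio of −1.42. Genes of this family have many processed copies, and reads that fit several copies can be lost or misplaced. Translation factors were mixed. Of 66, 31 were cytosol-enriched and 4 nuclear-enriched, from Eef1d, an exchange factor subunit of elongation, at −2.26 ± 0.10 to Eif2ak3, an ER-spanning kinase, at 2.31 ± 0.19. The elongation factor Eef1a1, with a nuclear mean of 5209 and a cytosolic mean of 16888, was at −1.83 ± 0.15. The scaffolds Eif4g1 and Eif4g3 were nuclear-enriched at 1.61 ± 0.10 and 1.62 ± 0.13, as was the helicase Eif4a2 at 1.26 ± 0.14.

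The ferritin chains Fth1 and Ftl1 had nuclear medians of 288 and 385 and cytosolic medians of 1623 and 1882, with log2 ratios of −2.50 ± 0.17 and −2.29 ± 0.13. Tmsb10, a thymosin that binds actin monomers, was at 70.5 to 215 in the nucleus and 512 to 1115 in the cytosol, with −2.56 ± 0.14. Ybx1, a protein that packages mRNA, was at 394 to 745 and 2429 to 4077, with −2.48 ± 0.11. Bag1, a cochaperone, was at −2.28 ± 0.11, and Ap3s1, of the AP-3 adaptor of vesicles, at −2.30 ± 0.12, the latter with medians of 13.3 and 57.3 only.

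Of 22 actin and tubulin genes and their monomer-binding partners, 15 were cytosol-enriched and 0 nuclear-enriched, with a median of −1.15. Actb and Actg1, the cytoplasmic actins, were at −1.45 ± 0.11 and −1.38 ± 0.08, and the actin-severing Cfl1 and the monomer binder Pfn1 at −1.64 ± 0.14 and −1.68 ± 0.11. Whole cells had a mean Actb level of 1688, against 976 in nuclear, 2443 in cytosolic and 1835 in membrane libraries.

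Among organelle and protease complexes, 36 of 77 mitochondrial ribosomal protein genes and 19 of 36 proteasome genes were cytosol-enriched, and 0 of either list nuclear-enriched. Medians were −0.97 and −1.10. Mrpl18 (−1.75 ± 0.11) and Psmb10 (−1.51 ± 0.11) were the lowest, and Mrpl33 (0.02 ± 0.12) and Psmd3 (−0.35 ± 0.08) the highest. Of 81 nuclear genes of the respiratory chain, 26 were cytosol-enriched and 1 nuclear-enriched. That one was Cox6a1, with 59.6 to 410 normalized CPM in the nucleus, 42.8 to 60.7 in the cytosol and a median of 485 in the membrane fraction, and a log2 ratio of 2.01 ± 0.19. Its nuclear and cytosolic libraries overlapped, although it was higher in the nucleus in 16 of 16 pairs. The 8 subunits of the TRiC chaperonin, which folds actin and tubulin, were all below 0 (median −0.76), and 0 passed the 2-fold limit with edgeR although all had an adjusted p under 0.05, with Cct6a at −0.996 ± 0.12 closest. Of 19 glycolytic genes, 3 enzymes (Pgam1, Tpi1 and Aldoa) were cytosol-enriched, and the 2 nuclear-enriched ones were the glucose transporters Slc2a1 and Slc2a3.

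**Figure D4:**
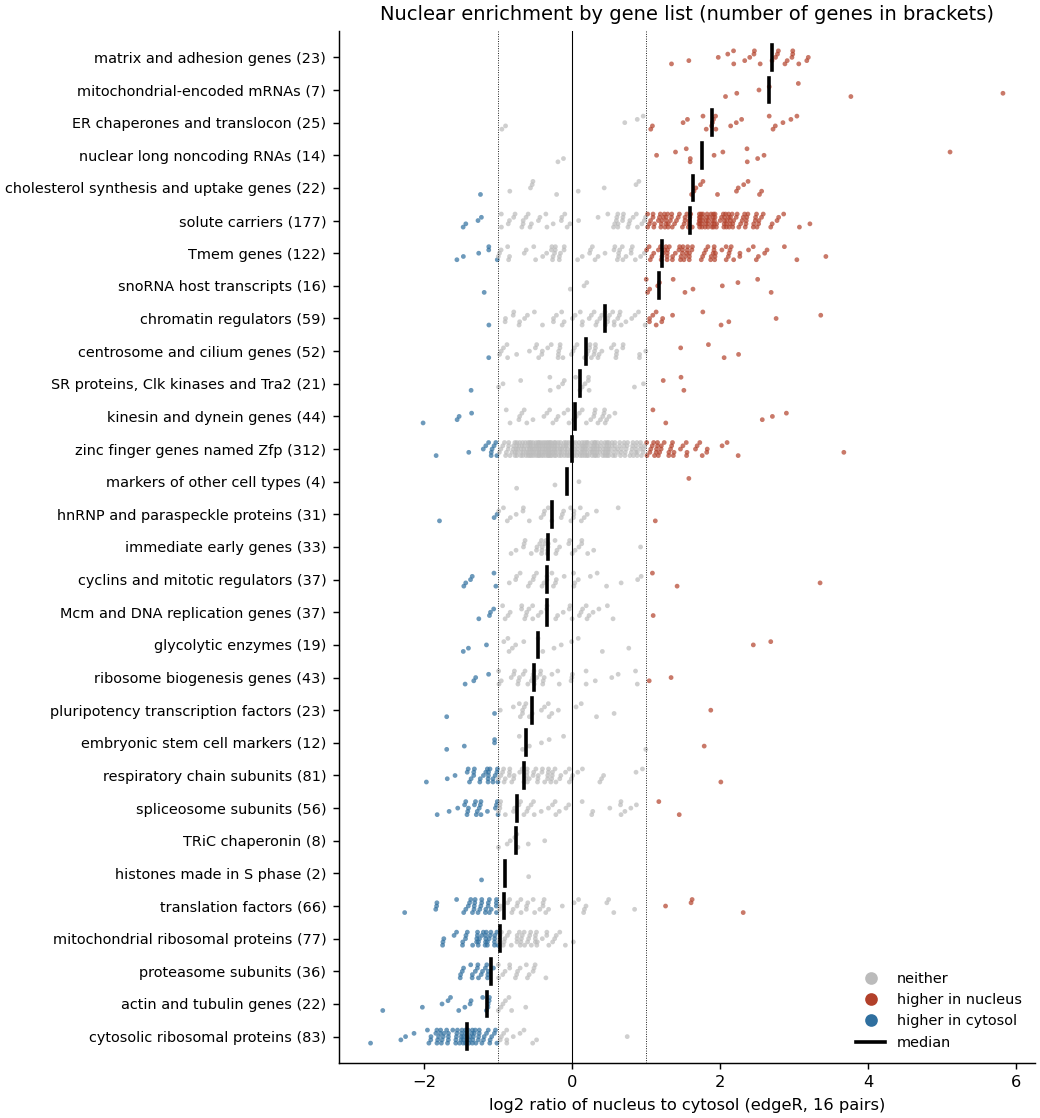
Log2 ratio of nucleus to cytosol of every gene in 31 lists (x axis), with the number of genes in brackets, nuclear-enriched genes in red, cytosol-enriched genes in blue, medians as black bars and dotted lines at 2-fold. Lists of secreted and membrane proteins and of noncoding RNAs lie to the right, with medians from 1.17 to 2.703, and those of ribosomes, proteasome and actin to the left, down to −1.42.

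Genes of RNA processing differed from list to list. Of 21 SR proteins and their kinases, 3 were nuclear-enriched and 1 cytosol-enriched. The splicing kinases Clk1 and Clk2 and the speckle protein Son were the 3, at 1.51 ± 0.15, 1.23 ± 0.09 and 1.47 ± 0.17. Clk1 had 141 to 415 normalized CPM in the nucleus (median 196) and 52.0 to 88.0 in the cytosol (median 66.5), with no overlap. Of 31 genes of hnRNP and paraspeckle proteins, 1, Ptbp2, was nuclear-enriched (1.12 ± 0.21, higher in the nucleus in 15 of 16 pairs) and 3 were cytosol-enriched, with Hnrnpab lowest at −1.79 ± 0.10. The medians of these 2 lists, 0.11 and −0.27, changed sign under other settings, to −0.12 within replicates 3 and 4 and to 0.01 with library size only. Of 56 spliceosome subunits, 2 were nuclear-enriched and 21 cytosol-enriched, with a median of −0.75, from Prpf8, the large core protein, at 1.45 ± 0.20 to Snrpd3, a small Sm ring protein, at −1.82 ± 0.18. Of 43 ribosome biogenesis genes, 2 were nuclear-enriched (Utp20 at 1.34 ± 0.06 and Polr1a at 1.04 ± 0.14) and 4 cytosol-enriched, among them the nucleolar chaperone Npm1 at −1.45 ± 0.19. Of 37 replication genes, Pole was the 1 nuclear-enriched gene (1.096 ± 0.13) and 4 were cytosol-enriched, with Gins4 lowest at −1.26 ± 0.11.

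Transcription factors showed small ratios for the most part. Of 312 zinc finger genes named Zfp, 38 were nuclear-enriched and 11 cytosol-enriched, and the median was 0.00, with a sign that depended on the setting. Zfp185, which despite its name is a LIM domain protein of the actin cytoskeleton, was highest at 3.67 ± 0.18, and Zfp706, a short protein, lowest at −1.84 ± 0.08. Of 33 genes listed as immediate early genes, 0 passed the 2-fold limit in either direction with edgeR, while 24 had an adjusted p under 0.05. Ccng2 was the highest of the list at 0.93 ± 0.08 and Id1 the lowest at −0.83 ± 0.09. Whether each listed gene responds as an immediate early gene in these cells was not tested. Of 23 pluripotency transcription factors, 1 was nuclear-enriched and 2 were cytosol-enriched. Pou5f1, encoding OCT4, was at 357 to 993 normalized CPM in the nucleus (median 620) and 1503 to 2768 in the cytosol (median 1875), with a log2 ratio of −1.70 ± 0.14 and no overlap. Nanog was at −1.05 ± 0.11, Sox2 at −0.71 ± 0.06, Esrrb at −0.58 ± 0.07 and Klf4 at −0.41 ± 0.08. Rex2, a zinc finger protein, was the nuclear-enriched one, at 1.87 ± 0.13, with medians of 42.9 and 13.1. Fgf4, a secreted growth factor of mESCs, was nuclear-enriched at 1.79 ± 0.11, with medians of 279 in the nucleus, 90.6 in the cytosol and 681 in the membrane fraction. Of the RNA-binding marker Lin28a the cytosol held more, at −1.46 ± 0.08. Histones made in S phase, whose mRNAs have no poly(A) tail, had only 2 members above the level limit.

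Genes not annotated as protein-coding, called noncoding here, made up 610 of the 10988, and 271 of them were nuclear-enriched and 144 cytosol-enriched. They include pseudogenes, 11 genes not in the annotation (8 of them nuclear-enriched) and the chaperonin gene Cct6a, annotated as a processed transcript. All 96 small nucleolar RNA (snoRNA) genes and all 6 small nuclear RNA genes were nuclear-enriched, with median log2 ratios of 3.21 and 4.66. These counts are no test, because a gene could be included through its nuclear level alone. Those named below had mean cytosolic levels of 0.234 (Gm25835) to 1.25 (Gm22513) and were included through the nucleus. These RNAs guide the modification of ribosomal RNA or take part in splicing, and most have no poly(A) tail, so that their level in these libraries is not that in the cell. Gm25835, annotated as a snoRNA, was at 3.17 to 245 normalized CPM in the nucleus (median 22.8) and 0 to 0.621 in the cytosol (median 0.206), with a log2 ratio of 6.84 ± 0.29. Snord17 was at 2.13 to 205 and 0.0592 to 0.859, with 5.48 ± 0.35. Gm24616 had medians of 14.5 and 0.460 and a log2 ratio of 5.04 ± 0.29. Nuclear levels of these genes thus spanned more than those of any mRNA named above, but did not meet the cytosolic ones. Gm22513, annotated as a small nuclear RNA, did overlap, at 2.95 to 969 in the nucleus and 0 to 4.01 in the cytosol, with a log2 ratio of 5.88 ± 0.30 and 16 of 16 pairs higher in the nucleus.

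Long noncoding RNAs were divided. Of 108 lincRNA genes, 36 were nuclear-enriched and 12 cytosol-enriched, against 22.0% and 14.7% of the 10988 genes. Gm26917, annotated as a lincRNA (chromosome 17, 39843013-39846341, plus strand, GRCm38, 1 exon), had the largest ratio of all 10988 genes, at 1192 to 12664 normalized CPM in the nucleus (median 4512), 8.23 to 70.6 in the cytosol (median 34.4) and a log2 ratio of 7.14 ± 0.28. Its class rests on the annotation alone, and from which RNA its reads come was not tested. Of 14 long noncoding RNAs listed as nuclear, 12 were nuclear-enriched and 0 cytosol-enriched, with a median of 1.76. Kcnq1ot1, which silences an imprinted cluster in cis (chromosome 7, 143203458-143296549, minus strand), was at 42.7 to 198 in the nucleus (median 83.6) and 1.14 to 4.24 in the cytosol (median 2.22), with 5.11 ± 0.20. Its membrane to cytosol ratio was 5.04. It is annotated as antisense and overlaps Kcnq1. The libraries were stranded, and the assignment of reads where the genes overlap was not tested.

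Malat1, of nuclear speckles, was at 231 to 1598 normalized CPM in the nucleus (median 776) and 62.3 to 174 in the cytosol (median 110), with a log2 ratio of 2.36 ± 0.28. It was 2.91 in replicates 1 and 2, 2.81 in replicates 3 and 4 and 0.79 in replicates 5 and 6. Neat1, the scaffold of paraspeckles, was at 1.398 ± 0.28, and its fractions overlapped, with 116 to 436 in the nucleus and 11.7 to 237 in the cytosol. The imprinted RNAs Meg3, Rian and Mirg of one cluster on chromosome 12 were at 2.37 ± 0.32, 1.92 ± 0.08 and 2.59 ± 0.13. Firre, which organizes chromosomal contacts, was at 2.04 ± 0.27. Pvt1 and Lncenc1 were the 2 that were not enriched, at −0.12 ± 0.08 and −0.19 ± 0.05. Of 16 host transcripts of snoRNAs, 12 were nuclear-enriched, led by Snhg11 at 2.69 ± 0.22, and 1, the ribosome-bound Rack1, was cytosol-enriched at −1.19 ± 0.14.

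Pseudogenes went the other way. Of 149 processed pseudogenes, 108 were cytosol-enriched and 9 nuclear-enriched, with a median of −1.28. Ftl2-ps had medians of 90.5 normalized CPM in the nucleus and 421 in the cytosol and a log2 ratio of −2.26 ± 0.14, close to −2.29 ± 0.13 of its parent gene Ftl1. Ftl1-ps2, Gm4332 and Rps3a2 were at −2.24 ± 0.15, −2.29 ± 0.15 and −2.07 ± 0.19. Reads of such copies cannot be told apart with certainty from those of their parent genes, and the values are uncertain for that reason.

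Hairpin genes of microRNAs formed a small group of 17, of which 10 were nuclear-enriched and 0 cytosol-enriched. Reads on such a gene cover the hairpin within a longer transcript and are no measure of the mature miRNA, which is too short for these libraries. Of the 10, 5 belong to the miR-290 cluster on chromosome 7, an abundant miRNA cluster of mESCs (chosen after their values were seen). The mature sequences that the hairpins of this cluster encode are shown to tell its members apart, from RefSeq (GRCm38.p6, plus strand), with bases 2 to 8, the seed that pairs with targets, in capitals. In all, 10 of the 17 genes were matched to a mature sequence. The 3p strands of miR-294 (chr7:3220691-3220712) and miR-295 (chr7:3220815-3220837) share a seed, that of miR-291b-3p (chr7:3219529-3219550) is close to it, and that of miR-293-3p (chr7:3220390-3220411) is unlike them, while miR-292a-5p (chr7:3219200-3219221) and miR-293-5p (chr7:3220356-3220377) share another seed.
miR-294-3p: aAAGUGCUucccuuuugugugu
miR-295-3p: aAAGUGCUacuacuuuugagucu
miR-291b-3p: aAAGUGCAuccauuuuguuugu
miR-293-3p: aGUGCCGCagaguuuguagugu
miR-292a-5p: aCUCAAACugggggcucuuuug
miR-293-5p: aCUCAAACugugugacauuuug

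Mir295, the last hairpin of the cluster, was at 27.0 to 86.3 normalized CPM in the nucleus (median 48.5) and 0.660 to 2.96 in the cytosol (median 2.06), with a log2 ratio of 4.62 ± 0.15. Mir294 was at 7.78 to 32.2 and 0.0534 to 1.55, with 4.14 ± 0.25. Mir293, Mir292 and Mir291b were at 4.02 ± 0.27, 3.85 ± 0.27 and 3.69 ± 0.24. For each of the 5 genes all nuclear libraries were above all cytosolic ones. Their mean cytosolic levels were 0.285 (Mir292) to 1.91 (Mir295), so that they too were included through the nucleus alone. The host transcript Mir17hg of another cluster, on chromosome 14, had a nuclear mean of 171, a cytosolic mean of 11.1 and a log2 ratio of 3.72 ± 0.17. The 7 annotated hairpin genes that were not enriched included Gm23935, at 339 to 6480 in the nucleus and 248 to 5947 in the cytosol, with −0.19 ± 0.22.

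The size of the enrichment differed between the sets of replicates. Of all tested genes, 30.7% (4634) had a log2 ratio that differed between the 3 sets by more than 1 with an adjusted p under 0.05 (edgeR's quasi-likelihood F-test of fraction by set). Among the 10988 genes it was 3378 (30.7%), and in 3346 of these the ratio in replicates 3 and 4 was the highest or the lowest of the 3. Of the nuclear-enriched genes 1223 differed, of the cytosol-enriched ones 661, and of the others 1494. All 2420 nuclear-enriched and all 1619 cytosol-enriched genes had the same sign in the 3 sets, from all of which they were chosen. The median of the nuclear-enriched genes was 1.48 in replicates 1 and 2, 2.34 in replicates 3 and 4 and 1.56 in replicates 5 and 6, and that of the cytosol-enriched genes −1.14, −1.76 and −0.92. Fitted alone, the sets gave 2088, 3128 and 2139 nuclear-enriched and 1443, 2521 and 580 cytosol-enriched genes. Of the genes enriched over all 16 pairs, 1701 nuclear and 467 cytosolic ones were called in each of the 3 sets. Without replicates 3 and 4, chosen after seeing the data, 2142 genes were nuclear-enriched and 957 cytosol-enriched.

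The 20 min libraries, which replicates 1 and 2 share with replicates 3 and 4, differed likewise, for 22.6% of 15212 tested genes and 2932 of the 10988. Within the sets, labeling time was tested as well. The ratio changed by more than 0.5 per doubling of time with an adjusted p under 0.05 for 0% of the 15078 tested genes (edgeR, 0 genes). An unadjusted p under 0.05 was seen for 1000 (6.63%), and the smallest adjusted p was 0.206. With DESeq2's size factors or library size only in the same edgeR test it was also 0, with 997 and 953 at an unadjusted p under 0.05. The slopes of the 10988 genes lay between −0.17 and 0.26 for all but the lowest and highest 5%. In simulated counts the test for labeling time recovered 126 of 200 genes given a slope of 1. Smaller slopes were not simulated, so that the test can miss changes near its limit.

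Pdcd10, an adaptor of GCKIII kinases, had the smallest adjusted p for the difference between sets, 1.0e-12 with edgeR. Its log2 ratio was 0.38 in replicates 1 and 2, −1.75 in replicates 3 and 4 and 0.14 in replicates 5 and 6. The next were Adgrl1, an adhesion receptor (1.49, 3.93 and 1.46), and Zdhhc8, a palmitoyltransferase (0.58, 2.86 and 0.99). Pcnx3, a membrane protein, was at 2.16, 5.03 and 2.79. Sptbn1 ran from 4.598 over 6.72 to 5.44 in the same order, and Rps12 from −2.43 over −3.31 to −2.31. Medians of lists with large ratios were farthest from 0 in replicates 3 and 4, such as those of the ribosomal proteins (−1.19, −2.10 and −0.82) and of the matrix and adhesion genes (2.04, 3.62 and 2.26). The pluripotency transcription factors (−0.66, −0.12 and −0.51) and the immediate early genes (−0.38, −0.16 and −0.23) were nearest 0 there. The share of mitochondrial-encoded reads given above was lowest in replicates 3 and 4 in all 4 kinds of libraries, and its part in these differences was not tested.

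**Figure D5:**
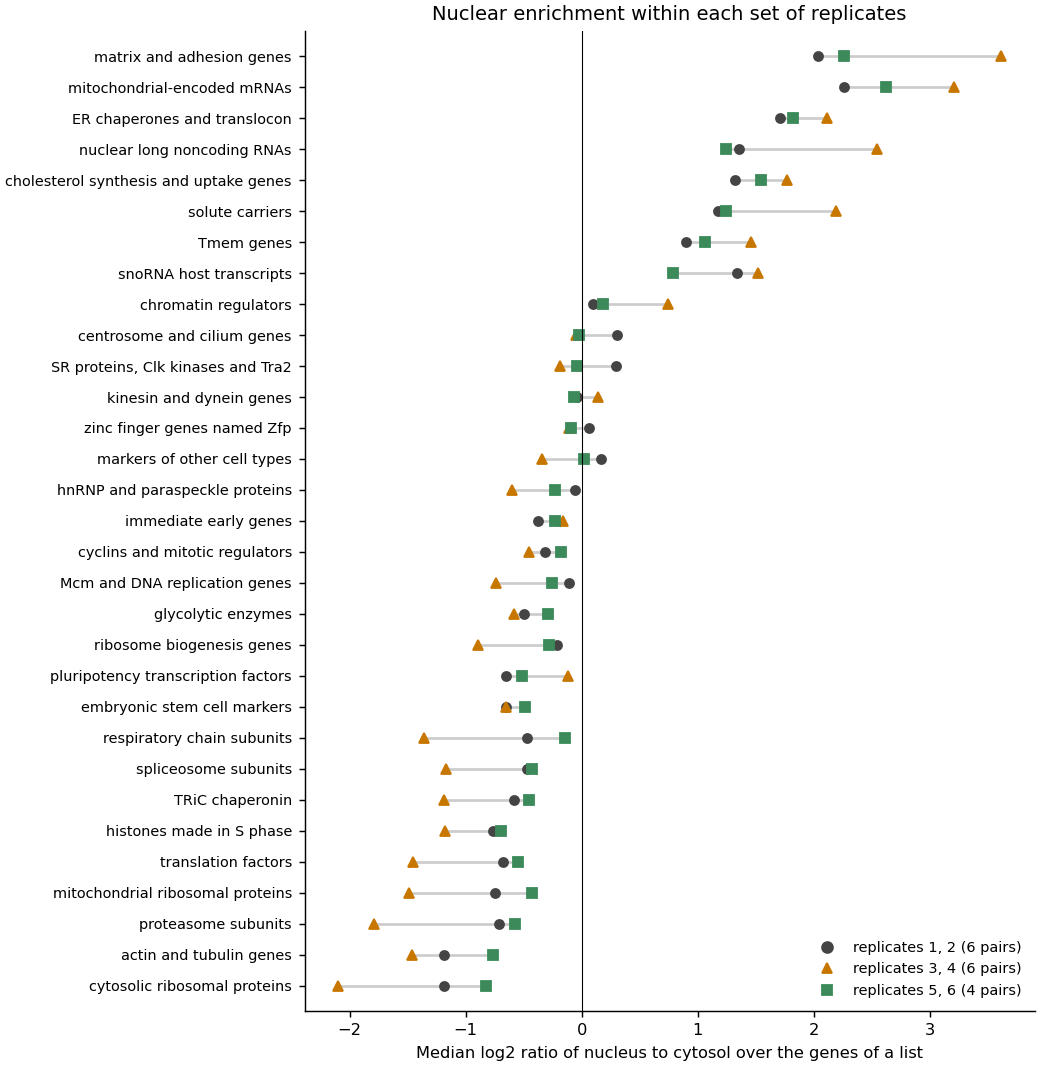
Median log2 ratio of nucleus to cytosol over the genes of each of 31 lists, within replicates 1 and 2 (circles), 3 and 4 (triangles) and 5 and 6 (squares). Replicates 3 and 4 lie farthest from 0 for most lists with large ratios, such as the ribosomal proteins at −2.10, and lists near 0, such as the Zfp genes, have medians on both sides of it.

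To ask whether the classes differ in a measure that was not used to make them, the share of new to total RNA in whole cells was compared. For each gene, T-to-C counts were divided by T counts and by the library's conversion rate. This was done for 10784 genes with 400 or more T counts in all whole-cell libraries. The median share of the cytosol-enriched genes was below that of the genes in neither class in 16 of 16 libraries, by 5.82 percentage points on average (SD 7.13, n = 16, two-sided exact sign-flip permutation test, p = 3.05e-05, the smallest the test can give, adjusted p = 6.1e-05). At 15 and 30 min the median shares were 1.93% and 4.32% for cytosol-enriched genes and 2.38% and 6.17% for the genes in neither class. At 20 min they were 2.62% and 3.62%, at 60 min 11.3% and 22.9%, and at 120 min 15.4% and 31.4%. The difference was −1.04 points in replicates 1 and 2, −3.38 in replicates 3 and 4 and −16.7 in replicates 5 and 6. By library it ran from −6.32 to −1.18 in replicates 3 and 4 and from −21.6 to −10.4 in replicates 5 and 6. Both of these sets hold 60 min libraries, and only replicates 5 and 6 hold 120 min libraries. The parts of labeling time and set of replicates were not tested. Libraries of one replicate share a culture passage. Over the 6 replicate means the difference was −7.03 (exact permutation test, p = 0.03125, the smallest possible).

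Nuclear-enriched genes also had a lower share than the genes in neither class, on average over the 16 libraries. The difference was −0.889 points (SD 1.33, n = 16, below 0 in 13 libraries, exact permutation test, adjusted p = 0.0168). It was −0.726 without replicate 1 and −0.773 without replicate 2, and did not pass the threshold in either case. Within the sets it was −1.50, −0.144 and −1.10, so that in replicates 1 and 2 it was farther from 0 than that of the cytosol-enriched genes. The median shares of nuclear-enriched genes were 1.87% at 15 min and 3.34% at 30 min, times that only replicates 1 and 2 have. At 20 min they had 2.90% against 3.62% for the genes in neither class. At 40, 60 and 120 min they had 6.80%, 22.3% and 30.5% against 6.93%, 22.9% and 31.4%. The paper describes later labeling far from the 3' end of long genes, and length was not held fixed here. Those with a membrane to cytosol ratio of 3 or more and those with a ratio under 1.5 are given apart as a description. The former were below the genes in neither class at every labeling time, with 1.72% against 2.38% at 15 min and 2.73% against 6.17% at 30 min. The latter were below them at 30 min, with 5.28%. At 15, 20, 40 and 120 min the latter were above, with 2.41%, 3.86%, 9.44% and 40.9% against 2.38%, 3.62%, 6.93% and 31.4%. At 60 min the median share was 18.9% ± 11.502 (SD, n = 4) for those with a membrane to cytosol ratio of 3 or more, 30.7% ± 18.04 for those with a ratio under 1.5 and 22.9% ± 13.61 for the genes in neither class.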

How the data were processed

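Reads of poly(A)-selected RNA from nucleus, cytosol, membrane fraction and whole cells (TruSeq Stranded mRNA, paired ends) were aligned by the authors with STAR 2.7.6 to mm10 and counted on genes with HTSeq 0.11.1, and the deposited values are raw counts, not normalized. RSEM 1.3.3 is named in the submitters' processing notes and was not needed for these files. Further deposited tables hold, from the authors' calling of T-to-C mutations, counts of T and of mutated T per gene and over introns, and the conversion rate of each library as a fraction. Lines of reads outside genes were left out of library sizes. The 8 libraries of 120 min, replicates 3 and 4, were set aside, and 64 libraries were put on one TMM scale for printed levels.

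Counts of the 32 nuclear and cytosolic libraries were tested in R 4.3.3 by the quasi-likelihood test of edgeR 4.0.16 (genes kept by filterByExpr, TMM, pair of labeling time and replicate as a block, Benjamini-Hochberg adjustment over all 15078 tested genes). Pairing is by design, since both fractions of a pair come from the same cells. Deviations within pairs correlated between 0.061 and 0.527, and 5 of 16 libraries correlated best with their own partner. DESeq2 1.42.0, other scalings, filters, fold limits and subsets of replicates were alternatives. The fits were tested on simulated counts, where the test for labeling time recovered a smaller part of the changes than the test of fractions. Replicates were independently passaged cultures of one line, and p-values over 16 pairs from 6 replicates treat the labeling times of a replicate as separate samples. PCR duplicates were not identified. Errors of log2 ratios are the fitted ratio divided by the square root of its quasi-likelihood F statistic, and SDs are over libraries.

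Gene symbols, lengths, exons and proteins were taken from GENCODE M21 on GRCm38, which matched 51633 of 51826 identifiers (99.6%), and the files' own annotation was an earlier GENCODE release of the same build. Summaries were made with pandas 2.3.3, numpy 2.4.6 and scipy 1.17.1 and drawn with matplotlib 3.10.9 under Python 3.11.15.

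Members and lists were chosen with earlier results of these data known. Genes named were the 10 protein-coding genes with the largest nuclear enrichment and a membrane to cytosol ratio under 1.5, the 6 with a ratio of 3 or more, the 10 with the largest cytosol enrichment, 6 nuclear and 4 cytosolic noncoding genes, the highest and lowest of each list, and the 5 with the smallest adjusted p for the sets. The leading protein-coding and noncoding genes needed a mean of 20 or more normalized CPM in the higher fraction, and the protein-coding ones also 1 direction in all 16 pairs. List genes had no such limit on level. Podxl and Ccng2, for example, had nuclear means of 8.65 and 9.07, and Id1 a cytosolic mean of 17.4. Some genes that these rules name are not reported here. Further list genes with a known role were named as examples after their values were seen.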

Additional observations from a re-analysis of the deposited data

Results flagged for a closer look

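The log2 ratio of nucleus to cytosol differed between replicates 1 and 2, 3 and 4, and 5 and 6 for 4634 of the 15078 tested genes, by edgeR's test of the difference itself (adjusted p under 0.05 and a range of the 3 ratios over 1).

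Among the 10 leading nuclear-enriched genes with a low membrane level, the range between the highest and the lowest of the 3 log2 ratios was 2.12 for Sptbn1, 1.799 for Iqgap1, 2.07 for Macf1, 2.12 for Iqgap3 and 2.57 for Dbn1. It was 1.802 for Lima1, 1.98 for Actn4, 1.96 for Cgn, 2.09 for Sptan1 and 3.05 for 2900026A02Rik. Of the genes high in the membrane fraction, Pom121 had a range of 3.01, Diaph1 of 1.68, Srebf1 of 2.39 and Ilvbl of 1.84.

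Of the 10 leading cytosol-enriched genes, Tmsb10 had a range of 1.13 and Fth1 of 1.23. Among noncoding genes the range was 1.34 for Gm26917, 2.03 for Gm25835, 3.14 for Snord17, 1.38 for Kcnq1ot1 and 2.63 for Gm24616. The pseudogenes Gm4332, Ftl1-ps2 and Rps3a2 had ranges of 1.16, 1.08 and 1.49. Pdcd10, Adgrl1, Zdhhc8 and Pcnx3, which were chosen for a small adjusted p of this difference, had ranges of 2.13, 2.47, 2.28 and 2.87.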

How the results depend on the processing

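No enriched gene named by rule changed direction under the alternatives run. The ratio of some named genes that were not enriched did change sign, such as Pdcd10 (−0.46 over all pairs, 0.38 in replicates 1 and 2 and 0.14 in replicates 5 and 6). Of 2100 values of named genes under alternatives, 2004 kept their call, 70 were no longer past the limits and 26 newly passed them. Nuclear-enriched members numbered 905 with a log2 limit of 2, and 6296 genes were nuclear-enriched without a filter on low counts and 1390 with the limit of 2 over all tested genes. Cytosol-enriched members depended more on the setting. They numbered 778 with library size only, 2521 within replicates 3 and 4, 580 within replicates 5 and 6, 957 without replicates 3 and 4 together (chosen after seeing the data), 3655 with a log2 limit of 0.5 and 40 with a limit of 2. Over all tested genes the same settings, except replicates 3 and 4 alone, gave 1033, 851, 1322, 4719 and 62. Leaving out 1 replicate number gave 2284 to 2530 nuclear-enriched and 1163 to 1825 cytosol-enriched members, or 3383 to 3865 and 1552 to 2365 of all tested genes. The test for labeling time gave 6 genes with no filter and 1 with 18 pairs. Without 1 replicate the difference in new RNA share was −1.08 to −0.726 for nuclear-enriched and −6.94 to −4.15 for cytosol-enriched genes. Causes were not tested.

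Without the replicate block, so without pairing, 2382 members were nuclear-enriched and 1641 cytosol-enriched (3578 and 2093 of all tested genes). With counts summed per replicate number and that number as the block, 2359 and 1602 members were called (4516 and 2369 of all tested genes). DESeq2 called 2470 and 1554 members. Low cytosolic counts limit the largest ratios: Gm25835, Gm24616, Gm22513, mt-Nd6 and Mir292 had 0 reads in at least 1 cytosolic library, so that the size of their ratios rests on few reads.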
